A study of Rattus norvegicus with 24 samples.

Results

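The spleen comparison described here set 3 rats dosed with cyclophosphamide against 3 rats dosed with vehicle, all without access to wood (sticks in the titles, blocks in the design text). They are 6 of the 24 arrays of the series and 6 of its 12 spleen arrays, and were picked out by their labels (spleen, no wood, drug or vehicle). Earlier results of these data were known when the comparison and the gene lists were chosen. The animals were male wild-type Sprague-Dawley rats aged 46 to 49 days. Rats 1001, 1003 and 1005 received vehicle and rats 2001, 2003 and 2005 received cyclophosphamide by mouth at 40 mg/kg/day, both for 5 days. Spleen RNA of each rat went to 1 Affymetrix rat expression array, so each value belongs to a separate animal. The other 6 spleen arrays come from vehicle and cyclophosphamide rats of the same age that had wood, and they are used below as a second pair of groups treated in the same way. The organs were flash frozen and homogenised 1 by 1, and the labels give no cell counts, organ weights or hour of necropsy.

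Cyclophosphamide is converted in the liver to a mustard that links the strands of DNA, and cells that divide are the most sensitive to it. The rodent spleen makes red cells, platelets and granulocytes in its red pulp throughout life, holds B and T lymphocytes in its white pulp, and clears aged red cells with macrophages that return their iron to the blood. These sit in a frame of fibroblasts, smooth muscle and sinus endothelium. In RNA from a whole organ, fewer cells of a type and less RNA per cell cannot be told apart, and a level is a share of all RNA on the array.

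Promoters of 4 genes whose levels fell are shown first, because each carries a sequence known to bind a factor of the cell type or process it stands for. RefSeq windows on the rat assembly GRCr8 run from 250 bases before a gene's start to 50 after it, and the 250 bases before the start are printed here, 5′ to 3′ on the gene's strand. Capitals mark the motif named for each gene. In Alas2, the erythroid enzyme that starts haem synthesis (chrX:22895200-22895449, plus strand), they mark AGATAA, a site of GATA factors, 136 bases before the start. In Blnk, an adaptor of the B cell receptor (chr1:249770534-249770783, minus strand), they mark the octamer ATGCAAAT on the opposite strand, and a CCAAT in the same stretch is left in lower case. Mki67, the gene of the proliferation antigen Ki-67 (chr1:199952594-199952843, minus strand), and Cdk1, the kinase that starts mitosis (chr20:19265043-19265292, plus strand), have CCAAT boxes, which bind NF-Y, and TTTGAA, the cell cycle homology region of mitotic genes. In Mki67, 1 CCAAT box overlaps 1 TTTGAA.
Alas2: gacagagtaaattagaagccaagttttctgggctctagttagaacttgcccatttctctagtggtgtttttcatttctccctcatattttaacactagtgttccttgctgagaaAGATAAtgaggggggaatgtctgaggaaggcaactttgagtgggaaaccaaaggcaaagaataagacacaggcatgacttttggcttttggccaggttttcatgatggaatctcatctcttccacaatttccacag
Blnk: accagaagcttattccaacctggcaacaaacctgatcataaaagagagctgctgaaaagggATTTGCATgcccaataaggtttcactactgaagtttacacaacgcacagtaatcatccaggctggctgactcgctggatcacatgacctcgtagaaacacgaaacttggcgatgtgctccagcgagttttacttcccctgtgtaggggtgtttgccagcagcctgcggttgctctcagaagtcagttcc
Mki67: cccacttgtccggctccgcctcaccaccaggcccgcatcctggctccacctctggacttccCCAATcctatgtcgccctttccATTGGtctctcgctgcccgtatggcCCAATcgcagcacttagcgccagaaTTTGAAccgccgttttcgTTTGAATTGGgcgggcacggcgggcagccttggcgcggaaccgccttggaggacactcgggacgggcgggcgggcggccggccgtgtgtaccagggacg
Cdk1: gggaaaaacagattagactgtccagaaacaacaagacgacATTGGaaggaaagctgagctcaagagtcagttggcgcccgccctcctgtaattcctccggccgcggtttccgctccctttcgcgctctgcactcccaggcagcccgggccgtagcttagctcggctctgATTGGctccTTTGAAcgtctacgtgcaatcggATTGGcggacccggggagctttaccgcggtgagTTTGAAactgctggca
The motifs were searched on both strands of the whole windows of 27457 genes. CCAAT was in 82.6% of the 23 mitosis genes with a window that were called lower below (19 of 23), against 37.7% of all windows. TTTGAA was in 65.2% of them (15 of 23), against 18.1% of all. AGATAA was in 3 of 21 erythroid genes called lower (14.3%), against 11.3% of all windows, and ATGCAAAT in 3 of 16 B cell genes (18.8%), against 1.64%. CCACACCC, a site of KLF1, was in 2 of the 21 erythroid genes (9.52%), against 3.23%. A match describes letters in a window and says nothing of binding.

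The authors' values are log10 intensities, given here as log2, and a change is cyclophosphamide minus vehicle. Of 14201 genes named by a probe set of their own, 13064 had a probe set with a value on all 6 arrays and were tested with limma, using the Benjamini-Hochberg adjusted p with a threshold of 0.05. The arrays were not equal: 1001, 1003, 1005 and 2005 had 1778 to 1920 blank cells of 30980, while 2001, 2003 and all 6 spleen arrays of rats with wood had 1021 to 1183. Rat 2005 is therefore the only treated rat in the class of its vehicle controls. Across 27170 probe sets, its array correlated with the vehicle arrays at r = 0.908 to 0.920, against 0.871 to 0.881 for 2001 and 2003. For this reason 2005 was also set against the 3 vehicle rats alone. That arm has 1 animal, so its adjusted p-values take their spread from the other groups and assume that 2005 varies as they do. Array 2003 carried transcripts of exocrine pancreas, an organ that lies against the spleen: 13 of 14 tested pancreas genes were highest there. Each list below was also counted without 2003, without 2005 and without both. Nearly all counts that moved by over 1.5 times are given.

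In these spleens 5995 of 13064 genes (45.9%) were called: 2926 were higher (22.4%) and 3069 lower (23.5%) with cyclophosphamide, and 7019 had an unadjusted p under 0.05. These shares are the background against which each list is read. The lists were chosen with earlier results known, so their counts are a description. In 3282 genes (25.1%) every treated rat was above every control, and in 3631 (27.8%) every treated rat was below. The median change over all genes was -0.05. The falls were the larger: 184 genes fell at least 4-fold (1.41%) and 83 rose as much (0.635%), and at 16-fold or more the numbers were 29 and 4. With 2005 alone as the treated animal, 1813 genes were higher and 1817 lower (13.9% each), and 3215 of the 5995 calls were made again. Levels are listed throughout in the order 1001, 1003, 1005 for vehicle and 2001, 2003, 2005 for cyclophosphamide.

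**Figure D1:**
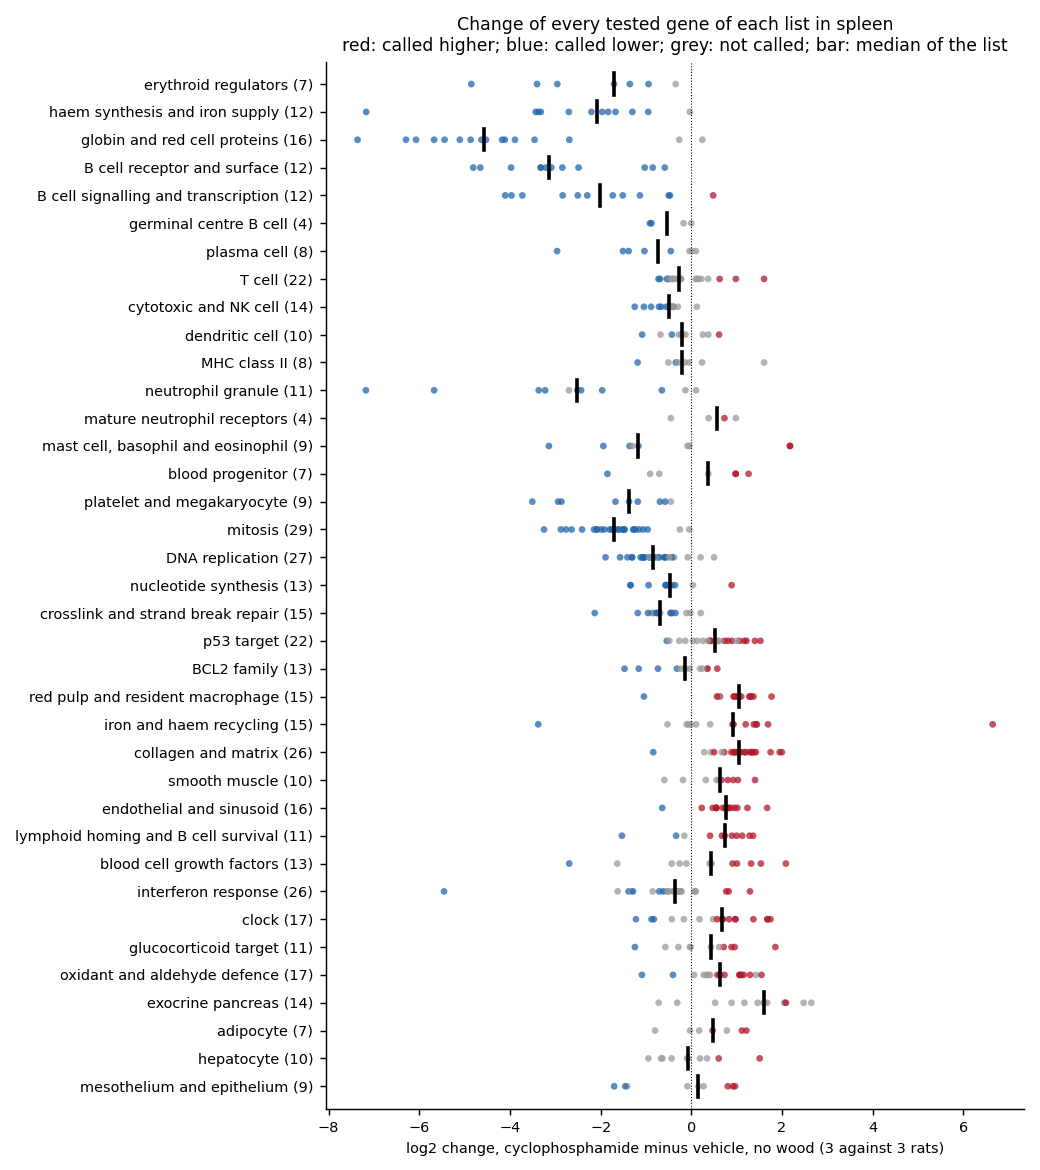
Log2 change (cyclophosphamide minus vehicle, no wood, 3 against 3 rats) of every tested gene in 37 lists, with the number tested in brackets. Each dot is a gene, red where called higher, blue where called lower and grey where not called, and the black bar is the median of the list. Globin and red cell genes lie farthest to the left with a median of -4.58, and collagen and matrix genes lie to the right with a median of 1.05.

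Red cell genes lost the most. Of 16 tested genes of globins and red cell proteins, 14 fell and 0 rose, with a median change of -4.58. Of 12 genes of haem synthesis and iron supply 11 fell (median -2.09), and of 7 erythroid regulators 6 fell (median -1.71). Epor, the erythropoietin receptor, was the regulator that did not pass, with a change of -0.35 ± 0.18 (adjusted p = 0.143), and its 3 probe sets differed in sign.

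Alas2 stood at 12.81, 12.41 and 12.17 in the vehicle rats and at 5.39, 5.22 and 5.26 in the treated rats. The 3 treated animals lay within 0.2 log2 of each other, far below every control. The fall was 7.17 ± 0.27 (SE, n = 3 against 3), or 144-fold, with an adjusted p of 6.28e-07. Ahsp, whose protein stabilises alpha globin, fell from 12.10, 12.33 and 12.07 to 5.20, 5.61 and 3.60, a change of -7.36 ± 0.46 (adjusted p = 5.85e-06). Hba-a3, an alpha globin gene, fell from 12.71, 12.47 and 12.16 to 6.05, 6.17 and 6.91, a 67.3-fold loss (adjusted p = 2.88e-06). Globin genes are near-identical copies, so the signal of this probe set may include other alpha globin transcripts. Hemgn, a nuclear protein of erythroblasts, went from 11.21, 11.31 and 11.20 to 4.33, 5.17 and 5.33 (change -6.29 ± 0.35, adjusted p = 4.70e-06), again with no overlap between the groups.

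The supply of iron and haem to the erythroblast fell with them. Tfrc, the transferrin receptor, which takes up iron, was 12.18, 12.30 and 12.34 in vehicle and 9.47, 9.39 and 9.86 in treated spleens, a change of -2.70 ± 0.20 (adjusted p = 1.31e-05). Slc25a37, mitoferrin, which brings iron into the mitochondrion, fell by 3.43 ± 0.24, and Fech, which inserts iron into the haem ring, by 3.38 ± 0.30. Among the proteins of the red cell membrane, Slc4a1, the band 3 anion exchanger, fell from 10.29, 10.39 and 10.33 to 6.69, 6.46 and 6.20. Each of these 4 genes was lower in every treated rat than in any control.

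Of the transcription factors that drive the lineage, Gata1 was 8.65, 8.85 and 8.71 in vehicle rats. It was 6.28, 5.32 and 4.40 in the treated rats, so that 2005 was the lowest, and the change was -3.40 ± 0.42 (adjusted p = 1.73e-04). Nfe2 fell by 4.85 ± 0.29 and Gfi1b by 1.71 ± 0.34. Tal1 fell by 2.96 ± 0.26 on the probe set kept, which was the brightest, while a dimmer probe set differed by 0.44 in the other direction. Klf1, which switches on adult globin, could not be tested because 2005 was blank: its values were 10.05, 10.38 and 10.11 in vehicle and 6.01 and 6.44 in 2001 and 2003. Epb42, a protein of the red cell skeleton, had 8.79, 9.09 and 8.37 in vehicle rats and was blank in all 3 treated rats. With 2005 alone as the treated rat the calls of the 3 red cell lists were 6, 11 and 14, as with all 3.

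**Figure D2:**
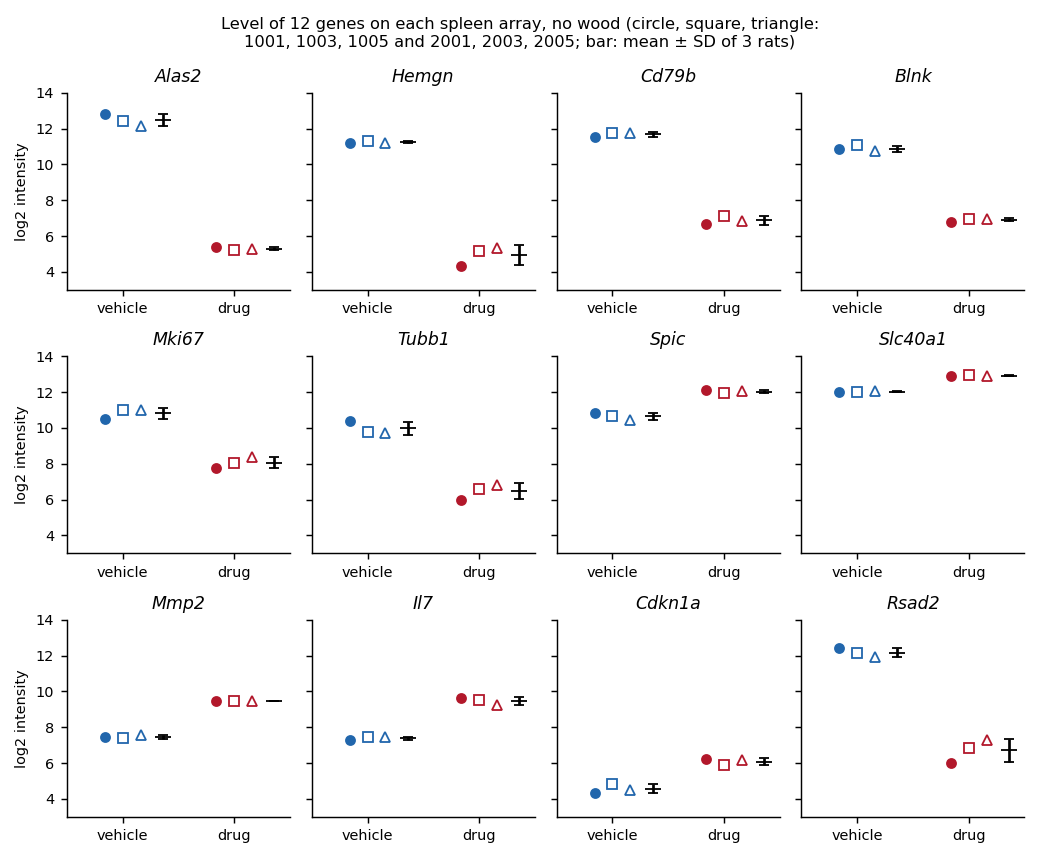
Log2 intensity of 12 genes on each of the 6 arrays, vehicle in blue and cyclophosphamide in red, with a symbol for each rat and the mean ± SD of 3 rats beside them. In each of the 12 panels the groups do not overlap: Alas2 lies between 12.17 and 12.81 in vehicle rats and between 5.22 and 5.39 in treated rats, and Mmp2 between 7.37 and 7.59 and between 9.46 and 9.47.

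The B cell lists were lower almost throughout. All 12 tested genes of the B cell receptor and B cell surface fell, with a median of -3.15, and 11 of 12 genes of B cell signalling and transcription fell, with a median of -2.02. Cd79b, a signalling chain of the B cell receptor, was 11.53, 11.78 and 11.73 with vehicle and 6.66, 7.11 and 6.84 with cyclophosphamide (change -4.81 ± 0.41, adjusted p = 2.39e-05). Ms4a1, which encodes CD20, went from 12.13, 12.36 and 12.34 to 7.69, 7.69 and 7.49, a fall of 4.65 ± 0.43 (adjusted p = 3.48e-05). In both genes the treated spleens lay close together, and none reached a control.

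Markers of resting and marginal zone B cells were among them. Cr2, the complement receptor CD21, fell 9.24-fold, from 11.67, 11.84 and 11.83 to 8.70, 8.33 and 8.69. Fcer2, the low-affinity IgE receptor CD23, fell 15.7-fold, from 9.26, 9.47 and 9.77 to 5.60, 4.74 and 6.24, and Ccr6, a chemokine receptor, fell 10-fold. Blnk went from 10.85, 11.06 and 10.73 to 6.81, 6.95 and 6.98 (change -3.97 ± 0.15, adjusted p = 6.28e-07). Ebf1, the factor that specifies B cells, fell by 2.84 ± 0.13, Pou2af1, the octamer coactivator, by 3.73 ± 0.22, and Bcl11a, a transcription factor of B cells, by 4.11 ± 0.26. In these 3 genes too the groups did not overlap. The exception in the signalling list was Lyn, a kinase that myeloid cells also use, which rose by 0.48 ± 0.13 (adjusted p = 0.013). That call was lost without 2003 (adjusted p = 0.0511), without 2003 and 2005 (0.0581) and with 2005 alone (0.21), and the 2 probe sets of Lyn differed in sign.

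Genes of antibody-secreting cells were mixed. Of 8 plasma cell genes 5 fell and 0 rose, with a median of -0.75. The factors that define these cells did not pass: Xbp1 differed by 0.01 ± 0.11 (adjusted p = 0.931) and Prdm1 by 0.10 ± 0.12 (adjusted p = 0.513). Mzb1, a chaperone of IgM assembly that marginal zone B cells also express, fell most, from 11.01, 11.40 and 11.42 to 8.70, 8.14 and 8.11 (-2.96 ± 0.18, adjusted p = 5.85e-06). Jchain, the joining chain of IgM and IgA, was 12.64, 12.61 and 12.75 in vehicle and 11.80, 11.42 and 11.68 in treated rats, a fall of 1.04 ± 0.17 (adjusted p = 9.61e-04). Tnfrsf17, the survival receptor BCMA, fell by 1.51 ± 0.16, and Creld2, an endoplasmic reticulum chaperone, by 1.38 ± 0.18. Of 4 germinal centre genes 2 fell, a count that was 1 without 1005, without 2003 and 2005 or with 2005 alone. Bcl6, the factor that germinal centre B cells need, overlapped between the groups at 9.95, 9.45 and 10.07 and 9.75, 9.95 and 9.75 (adjusted p = 0.985). Gcsam fell by 0.91 ± 0.27 (adjusted p = 0.0193, and 0.0724 without 1005), and S1pr2, which holds cells in the germinal centre, by 0.88 ± 0.21 (adjusted p = 0.00762).

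Genes of cell division were lower in treated spleens. Of 29 tested mitosis genes 27 fell and 0 rose, with a median of -1.70. Of 27 DNA replication genes 20 fell and 0 rose, with a median of -0.84. The counts depended on which treated rats were used: with 2005 alone, 17 of the mitosis genes and 10 of the replication genes were called lower.

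Mki67 was 10.47, 11.02 and 10.97 in vehicle rats and 7.75, 8.06 and 8.35 in treated rats. All controls were above all treated animals, and the change was -2.77 ± 0.34 (adjusted p = 1.54e-04). Ccnb1, the cyclin of mitotic entry, fell from 8.50, 9.26 and 9.42 to 6.97, 7.13 and 7.12 (adjusted p = 9.73e-05), and Cenpf, a kinetochore protein, fell 9.52-fold, from 8.33, 8.94 and 8.93 to 5.19, 5.50 and 5.76. Cdk1 was 9.03, 9.64 and 9.56 and 7.45, 7.82 and 8.48. It fell by 1.49 ± 0.40 (adjusted p = 0.0122), but in 2005 alone the difference was -0.93 with an adjusted p of 0.225. Top2a, the topoisomerase that untangles chromosomes, likewise fell by 1.62 ± 0.31 (adjusted p = 0.00222), with an adjusted p of 0.0645 in 2005 alone. Bub1b, a checkpoint kinase that could not be tested, had 7.16, 7.39 and 7.69 in vehicle rats, a blank in 2001, and 3.15 and 5.36 in 2003 and 2005. In rats with wood Top2a was not called (-0.80 ± 0.31, adjusted p = 0.0645), while Mki67, Ccnb1, Cenpf and Cdk1 were called lower.

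Among replication genes, Mcm3, a subunit of the replicative helicase, fell from 9.48, 9.99 and 9.69 to 8.34, 8.60 and 8.30 (adjusted p = 1.73e-04). Orc1, which marks origins, fell by 1.89 ± 0.26, and Cdt1, which loads the helicase, by 1.41 ± 0.28 (0.0725 as adjusted p in 2005 alone). Pcna, the sliding clamp, changed less, from 11.73, 11.94 and 11.82 to 11.19, 11.26 and 11.37, a fall of 0.55 ± 0.11 (adjusted p = 0.00266, and 0.0548 in 2005 alone). Of 13 genes of nucleotide synthesis 9 fell and 1 rose (median -0.48), and 5 fell with 2005 alone. Rrm1, a subunit of ribonucleotide reductase, fell by 1.34 ± 0.22 and Dut, which removes dUTP, by 1.35 ± 0.16. Umps, which completes UMP synthesis, rose from 10.17, 10.12 and 10.14 to 11.14, 11.18 and 10.77 (adjusted p = 2.49e-04). Tyms, thymidylate synthase, did not pass (-0.43 ± 0.28, adjusted p = 0.24). In rats with wood Pcna (-0.15, adjusted p = 0.308), Cdt1 (-0.63, 0.1) and Rrm1 (-0.55, 0.0736) were not called. Mcm3, Orc1 and Dut were called lower there.

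Repair of crosslinks and strand breaks is carried out by the Fanconi and homologous recombination proteins. Of 15 tested genes of this kind 9 fell and 0 rose, with a median of -0.69, and 1 rose without 2005. Ube2t, the E2 enzyme of the Fanconi pathway, was 7.15, 7.78 and 7.45 in vehicle rats and 5.0, 5.33 and 5.66 in treated rats (-2.13 ± 0.35, adjusted p = 8.42e-04). Brca2, a protein of homologous recombination, fell by 1.18 ± 0.29 (adjusted p = 0.00761) and Rad54l by 0.96 ± 0.24 (adjusted p = 0.00876). Fancd2, the protein that UBE2T marks, fell by 0.77 ± 0.22 (adjusted p = 0.0178), a call lost in 4 of 6 fits that left out a rat, with adjusted p up to 0.0623 without 1003. Brca1 did not pass (-0.44 ± 0.24, adjusted p = 0.154), although without 2005 it did (adjusted p = 0.0368). In rats with wood the median of the list was -0.45. Ube2t (-0.72), Brca2 (-0.29), Rad54l (-0.55) and Fancd2 (-0.53) were not called there, with adjusted p of 0.0826 to 0.47. Fancb fell in both housings, by 0.83 without wood and 0.65 with wood (adjusted p = 0.00179 and 0.00666). Ube2t stood at 5.87, 6.17 and 6.52 in vehicle rats with wood.

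Platelet genes fell as a list: 8 of 9 tested genes were lower and 0 higher, with a median of -1.38. Tubb1, the tubulin of the platelet rim, went from 10.41, 9.77 and 9.72 to 5.97, 6.57 and 6.83 (-3.51 ± 0.27, adjusted p = 1.63e-05). Itga2b, the integrin of the fibrinogen receptor, was 9.34, 9.09 and 9.07 in vehicle and 7.32, 7.41 and 7.75 in treated rats (adjusted p = 2.55e-04). Ppbp, a platelet chemokine, fell 7.67-fold and Treml1, a granule receptor, 7.29-fold. Pf4, another platelet chemokine, overlapped between the groups, with 12.27, 11.45 and 11.72 in vehicle rats and 11.01, 11.49 and 11.58 in treated rats, and did not pass (adjusted p = 0.167). Gp9, a subunit of the von Willebrand factor receptor, had 7.75, 7.32 and 7.41 in vehicle rats, 6.23 and 5.41 in 2001 and 2003, and a blank in 2005.

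Granule genes of developing neutrophils fell by large factors from uneven controls. Of 11 tested, 8 fell and 0 rose, with a median of -2.52. The count was 4 without 1001, without 2003, without 2005 or without both of the last. RatNP-3b, a neutrophil defensin, was 11.74, 9.84 and 10.11 in vehicle rats, with 1001 the highest by over 1.5 log2, and 4.07, 2.32 and 3.76 in treated rats. The change was -7.18 ± 0.57 (adjusted p = 1.74e-05), but the treated values lie below 4.26, the median level of probe sets with 1 blank among the 6 arrays, so its size is uncertain. Np4, another defensin, fell from 10.91, 8.71 and 8.82 to 4.01, 3.47 and 3.93 (adjusted p = 3.02e-05), and Defa5, a defensin outside the list, from 11.13, 8.72 and 8.78 to 3.08, 4.0 and 3.59 (adjusted p = 8.71e-05). Defensin genes are similar in sequence and may share signal. Fcnb, a ficolin of immature neutrophils, fell by 3.23 ± 0.29.

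S100a9, a calprotectin subunit carried by mature neutrophils too, was 12.42, 10.09 and 10.74 and 10.07, 8.41 and 7.47. The group ranges touch within 0.02 log2 at 1003 and 2001, and the fall of 2.43 ± 0.72 (adjusted p = 0.0189) was lost without 1001 (0.0658), 2003 (0.0569) or 2005 (0.0556). Cxcr2, the receptor by which mature neutrophils follow chemokines, rose by 0.73 ± 0.20 (adjusted p = 0.0151, and 0.0548 without 1001). It was the only called gene of 4 mature neutrophil receptors, where 2 were higher and 1 lower without 2005, and also without 2003 and 2005. Among 9 genes of mast cells, basophils and eosinophils, 4 fell and 2 rose. Epx, eosinophil peroxidase, fell from 7.97, 5.98 and 6.01 to 2.81, 3.55 and 4.17 (adjusted p = 0.00185), and Prg2, the eosinophil major basic protein, from 9.27, 7.06 and 7.60 to 6.09, 6.23 and 5.79 (adjusted p = 0.0057). Ccr3, the eotaxin receptor, moved the other way, from 7.54, 7.40 and 7.75 to 10.08, 9.78 and 9.35, a rise of 2.17 ± 0.21 (adjusted p = 4.22e-05). With 2005 alone the list had 2 falls and 1 rise, and without 2003 and 2005 it had 1 rise.

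Genes of blood stem and progenitor cells were split. Of 7 tested, 3 rose and 1 fell, and 2 fell without 2003 and 2005. Myb, which is active in dividing progenitors, fell from 8.12, 8.21 and 8.32 to 6.31, 6.03 and 6.75 (adjusted p = 2.60e-04). Factors of stem cell identity were the ones that rose. Meis1 went from 8.41, 7.70 and 7.92 to 9.47, 9.02 and 9.32 (adjusted p = 4.45e-04), Mecom rose by 0.98 ± 0.13 and Hlf by 0.98 ± 0.17. Meis1, Mecom and Hlf are also expressed by cells of other lineages, including endothelium and stroma. Kit, the receptor of stem cell factor, fell short of the threshold at -0.91 ± 0.35 (adjusted p = 0.0546) and was called lower without 1001 (0.0243) or without 2001 (0.0449).

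T cell genes shifted little. Of 22 tested, 4 fell, 3 rose and 15 were not called, and the median was -0.27. The 4 falls became 1 without 2003, without 2003 and 2005 or with 2005 alone, and 2 without 1001, 1005 or 2001. Cd3e, a chain of the T cell receptor complex, was 9.94, 9.81 and 10.13 in vehicle and 9.46, 9.70 and 9.86 in treated rats, and its groups overlapped (adjusted p = 0.258). Cd8a was 9.37, 9.11 and 9.64 and 9.61, 9.49 and 9.69, also overlapping (adjusted p = 0.276). Cd4 was higher in every treated rat, with 7.85, 7.66 and 7.70 in vehicle and 9.32, 9.62 and 9.08 in treated spleens. The rise was 1.60 ± 0.17 (adjusted p = 8.21e-05), and macrophages of the rat carry CD4 as well. Vehicle rats with wood had higher Cd4 levels, at 8.59, 8.73 and 8.36, and the rise there was 0.73 ± 0.17 (adjusted p = 0.00716). The difference of the Cd4 rise between housings was not called (adjusted p = 0.234). Il7r, the receptor of interleukin-7, rose from 9.59, 9.66 and 9.86 to 10.70, 10.65 and 10.69 (adjusted p = 1.07e-04). Lef1, a factor of naive T cells, fell by 0.73 ± 0.18 (adjusted p = 0.00751, and 0.168 in 2005 alone).

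Of 14 genes of cytotoxic and natural killer cells, 8 fell and 0 rose (median -0.49). The count was 4 without 2003, 5 without 1005, 3 without 2003 and 2005, and 2 with 2005 alone. Eomes, their transcription factor, was 8.15, 7.85 and 7.98 in vehicle and 6.90, 6.83 and 7.11 in treated rats (adjusted p = 0.00239, and 0.0503 in 2005 alone), and Prf1, perforin, fell by 0.47 ± 0.12 (adjusted p = 0.00956). Of 10 dendritic cell genes 2 fell and 1 rose, and 0 were called lower without 2003 and 2005. Flt3, the receptor that dendritic cells and their progenitors need, fell from 7.86, 7.60 and 7.62 to 6.76, 6.18 and 6.87 (adjusted p = 0.00783, and 0.136 in 2005 alone). The 1 rise, Fscn1, was lost in 5 of 6 fits that left out a rat, with adjusted p up to 0.099 without 2001, and without 2005 there were 2 rises.

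Of 8 MHC class II genes 2 fell and 0 rose, and 1 fell without 1001, 1003, 2001 or 2003, or without 2003 and 2005. Ciita, the factor that switches on the class II genes, was 9.92, 10.22 and 10.18 in vehicle rats and 8.90, 8.78 and 9.08 in treated rats (-1.19 ± 0.11, adjusted p = 4.22e-05). Cd74, the invariant chain, stayed within a narrow range at 13.27, 13.36 and 13.29 and 13.21, 13.24 and 13.03 (adjusted p = 0.137). The change of Cd74 was -0.15 ± 0.08. Every treated rat lay below every control in Cd74 and in 6 of the 8 class II genes in all, against 27.8% of all genes tested. The median of the list was -0.22 without wood and -0.26 with wood, where Cd74 was called lower (-0.27 ± 0.08, adjusted p = 0.0178).

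The interferon response genes had no common direction: 3 of 26 rose, 5 fell and 18 were not called, with a median of -0.36. With 2005 alone 1 rose, and without 1001 8 fell. Rsad2, viperin, was an outlying member at 12.41, 12.16 and 11.89 in vehicle and 6.02, 6.81 and 7.28 in treated rats, a 43.9-fold fall of 5.46 ± 0.75 (adjusted p = 3.21e-04). Herc6 fell by 1.29 ± 0.22 and Ifi44l by 0.71 ± 0.13. Gbp2, a guanylate-binding protein induced by interferon gamma, rose from 10.12, 10.26 and 10.05 to 11.32, 11.53 and 11.45 (adjusted p = 2.96e-05), and Cxcl9 rose by 0.82 ± 0.21 (adjusted p = 0.00934, and 0.0847 in 2005 alone).

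Macrophage genes were higher. Of 15 tested genes of red pulp and resident macrophages 13 rose and 1 fell, with a median of 1.04, and 11 rose with 2005 alone. Spic, the factor that red pulp macrophages depend on, went from 10.84, 10.67 and 10.46 to 12.10, 11.94 and 12.03. No treated rat was below a control, and the rise was 1.37 ± 0.11, or 2.58-fold (adjusted p = 1.87e-05). Cd163, the scavenger receptor of haemoglobin, rose from 10.25, 9.73 and 9.91 to 11.36, 11.36 and 11.13 (adjusted p = 1.75e-04), and Csf1r, the receptor of macrophage growth factor, from 11.41, 11.19 and 11.23 to 12.24, 12.34 and 12.10 (adjusted p = 3.84e-05). Mertk, a receptor for apoptotic cells, rose by 1.77 ± 0.16 and Mrc1, the mannose receptor, by 1.30 ± 0.18. The exception was Lyz2, lysozyme, which neutrophils and monocytes also make: it fell from 12.69, 12.65 and 12.67 to 11.78, 11.67 and 11.42 (adjusted p = 5.41e-05).

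Iron and haem recycling moved with the macrophages. Of 15 tested genes 8 rose and 1 fell, with a median of 0.91, and 2 fell with 2005 alone. Hmox1, haem oxygenase 1, went from 12.29, 12.29 and 12.21 to 13.25, 13.34 and 12.98 (0.93 ± 0.13, adjusted p = 2.74e-04). Slc40a1, ferroportin, which exports iron, rose from 11.99, 11.99 and 12.05 to 12.92, 12.96 and 12.88, and although the change was only 1.88-fold its spread was small (adjusted p = 1.93e-05). Slc48a1, which brings haem out of the lysosome, rose by 1.69 ± 0.13, and Aco1, the iron regulatory protein 1, by 1.43 ± 0.08. Tfr2, the iron sensor that erythroblasts share with hepatocytes, fell from 6.86, 7.52 and 6.87 to 3.52, 3.67 and 3.93 (adjusted p = 0.00218). Hfe, the partner of transferrin receptors, had the largest fitted rise of any list gene, but its controls lay at -2.39, 1.42 and 3.91, low and far apart. Treated rats had 8.16, 8.07 and 6.64, and rats with wood had 7.07, 6.99 and 7.31 on vehicle.

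The frame of the spleen was also higher. Of 26 collagen and matrix genes 22 rose and 1 fell, with a median of 1.05, and 20 rose with 2005 alone. Mmp2, a gelatinase of fibroblasts, was 7.45, 7.37 and 7.59 in vehicle rats and 9.47, 9.46 and 9.46 in treated rats. The treated animals agreed within 0.02 log2, and the rise was 2.0 ± 0.12 (adjusted p = 5.85e-06). Col1a1 rose from 8.61, 8.69 and 8.90 to 9.69, 10.10 and 9.97 and Col3a1, the reticular collagen, from 10.78, 10.95 and 11.03 to 12.02, 12.11 and 11.84. Pdgfra, a growth factor receptor that marks fibroblasts, rose by 1.42 ± 0.16, Pdgfrb, its counterpart on mural cells, by 0.94 ± 0.10, and Postn, periostin, by 1.75 ± 0.20. Fn1, fibronectin, was the 1 that fell, at -0.84 ± 0.26 (adjusted p = 0.0226). The fall of Fn1 was lost without 1003, 1005, 2001 or 2003, with adjusted p of 0.0596 to 0.0769, and with 2005 alone (0.348).

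Of 10 smooth muscle genes 5 rose and 0 fell. Without 1003, or without 2003 and 2005, 3 rose, and without 2005, alone or with 2003, 1 fell. Synpo2, an actin-bundling protein, rose from 8.70, 8.59 and 8.79 to 10.10, 10.15 and 10.04 (adjusted p = 5.01e-06), Tagln, transgelin, by 1.03 ± 0.12, and Des, desmin, by 0.92 ± 0.10. Acta2, smooth muscle actin, overlapped between the groups and did not pass (-0.18 ± 0.17, adjusted p = 0.409). Without 1001 it was called lower (adjusted p = 0.0329). Of 16 endothelial and sinusoid genes 15 rose and 1 fell, with a median of 0.75, and 9 rose without 2003 and 2005 and 8 with 2005 alone. Pecam1 rose by only 0.23 ± 0.08 (adjusted p = 0.0456), a call kept in 1 of 6 fits that left out a rat. Stab2 rose by 0.75 ± 0.24 (adjusted p = 0.0249), a call kept in 2 of 6. Both were called higher in rats with wood. Emcn, endomucin of veins and sinuses, went from 7.62, 7.61 and 7.71 to 8.67, 8.52 and 8.61 (adjusted p = 5.05e-05). Stab1, a scavenger receptor shared by sinus endothelium and macrophages, rose by 1.24 ± 0.25 (adjusted p = 0.00259), and Lyve1, a hyaluronan receptor, rose from 7.23, 6.79 and 6.91 to 8.49, 9.26 and 8.20 (adjusted p = 0.00372, and 0.0896 in 2005 alone). Vwf, which platelets and megakaryocytes also make, was the 1 that fell (-0.64 ± 0.22, adjusted p = 0.0357), and its call was lost without 1001, 1003, 2001 or 2005, with adjusted p of 0.0767 to 0.112, and with 2005 alone (0.118).

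Stromal genes that guide lymphocytes rose although B cell genes fell. Of 11 tested genes of lymphoid homing and B cell survival 8 rose and 2 fell, with a median of 0.74, and 1 fell without 2003 and 2005 or with 2005 alone. Cxcl13, the attractant of B cell follicles, was 10.88, 10.65 and 11.19 in vehicle and 11.86, 11.82 and 11.72 in treated rats (0.89 ± 0.18, adjusted p = 0.00313). Ccl19, which draws T cells and dendritic cells, rose from 10.12, 9.65 and 9.26 to 10.89, 10.67 and 10.83 (adjusted p = 8.04e-04), and Nkx2-3, a factor of splenic stroma, by 1.36 ± 0.15. Ltb, the lymphotoxin that B cells present to this stroma, fell from 11.06, 10.75 and 10.87 to 9.24, 9.29 and 9.55 (-1.53 ± 0.14, adjusted p = 3.76e-05), while its receptor Ltbr rose by 1.0 ± 0.14. Lta, the partner of Ltb, was the other fall, at -0.34 ± 0.09 (adjusted p = 0.0125, and 0.0842 in 2005 alone).

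Of 13 tested blood cell growth factors 5 rose and 1 fell, and 2 fell without 1003, 2001 or 2005, without 2003 and 2005, or with 2005 alone. Il7, the stromal cytokine of lymphocyte precursors, went from 7.29, 7.43 and 7.45 to 9.65, 9.54 and 9.23, a 4.24-fold rise of 2.08 ± 0.13 (adjusted p = 5.48e-06). Kitlg, stem cell factor, rose from 8.76, 8.59 and 8.66 to 10.05, 9.97 and 9.94 (adjusted p = 5.20e-06), and 3 of its 4 probe sets had the same sign. Bmp4, which supports stress erythropoiesis in the rodent spleen, rose by 1.53 ± 0.16, and Il15, the growth factor of natural killer cells, by 1.0 ± 0.20. Il6 was the fall, from 7.09, 7.0 and 6.29 to 3.60, 3.95 and 4.74 (adjusted p = 1.32e-04). Of these genes none overlapped between the groups.

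The p53 pathway was tested through 22 targets. DNA damage is known to raise p53, which stops the cycle and can trigger death. With 10 higher, 1 lower and 11 not called, the list had a median of 0.51. Cdkn1a, the p21 inhibitor of the cell cycle, was 4.33, 4.83 and 4.51 in vehicle and 6.20, 5.88 and 6.16 in treated rats (1.52 ± 0.30, adjusted p = 0.00249). A second probe set of Cdkn1a, blank in 1003 and 1005, read 3.77 in 1001 and 8.57, 8.73 and 8.47 in the treated rats. Ccng1, cyclin G1, rose by 0.89 ± 0.09 (adjusted p = 5.77e-05), Plk2 by 1.40 ± 0.14, and Phlda3, an inhibitor of AKT, by 1.17 ± 0.13. Ddb2, a sensor of DNA lesions, rose from 6.65, 6.87 and 6.04 to 7.77, 7.69 and 7.75 (adjusted p = 0.0014). Sesn1, sestrin 1, was the 1 that fell, by 0.54 ± 0.09 (adjusted p = 0.00112), and Mdm2, the ligase that removes p53, did not pass (0.12 ± 0.09, adjusted p = 0.267), with probe sets of both signs.

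Of 13 BCL2 family genes, which set the threshold of cell death, 4 fell and 2 rose. Mcl1, a survival factor of lymphocytes and neutrophils, went from 11.24, 11.33 and 11.44 to 10.68, 10.46 and 10.65 (adjusted p = 1.97e-04). Bcl2l1, the survival factor BCL-XL of erythroblasts and platelets, fell from 9.51, 8.38 and 8.34 to 7.29, 7.52 and 7.0 (adjusted p = 0.0025) on the brightest of 3 probe sets, 1 of which had the opposite sign. Hrk, a death-promoting member, fell by 1.16 ± 0.18. Bcl2 itself did not pass (-0.13 ± 0.11, adjusted p = 0.345). The 2 rises were both lost without 2003, without 2003 and 2005 and with 2005 alone, and 1 was lost without 1003 or 1005.

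Clock genes, which cycle with the hour of the day, differed between the groups. Of 17 tested, 10 rose and 3 fell, with a median of 0.68. With 2005 alone 6 rose, and without 1001 only 1 fell. Nr1d1, which represses the clock activator, was 7.09, 6.68 and 7.14 in vehicle and 8.56, 8.99 and 8.39 in treated rats (1.67 ± 0.18, adjusted p = 7.60e-05). Dbp, an output factor, rose from 7.50, 7.46 and 6.98 to 9.04, 9.16 and 8.79 (adjusted p = 0.0013), and Per2 rose by 1.37 ± 0.34 (adjusted p = 0.00809, and 0.143 in 2005 alone). Cry1 moved the other way, from 8.22, 8.25 and 8.11 to 6.77, 6.88 and 7.26 (adjusted p = 4.61e-04). In rats with wood Per2 was not called (0.46 ± 0.34, adjusted p = 0.31), with vehicle levels of 8.11, 8.15 and 8.11. Nr1d1, Dbp and Cry1 were called there in the same direction as without wood. Glucocorticoid targets had 4 rises and 1 fall among 11. The 4 rises became 2 without 1003 or without 2003 and 1 with 2005 alone, and the fall was lost without 1001, 1003, 2001 or 2005 and with 2005 alone. Klf9 rose by 0.95 ± 0.19 (adjusted p = 0.00242) and Sgk1 by 0.88 ± 0.19 (adjusted p = 0.00418, and 0.121 in 2005 alone). Fkbp5 rose by 0.71 ± 0.23 (adjusted p = 0.0285), a call kept in 3 of 6 fits that left out a rat. Tsc22d3 did not pass (0.61 ± 0.32, adjusted p = 0.139), and Mt1 was the fall (-1.25 ± 0.42, adjusted p = 0.0333). In rats with wood Fkbp5 changed by 0.04 and Tsc22d3 by -0.13, and neither was called. Klf9 and Sgk1 were called higher there. The part of the hour of necropsy in the clock and glucocorticoid values was not tested.

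Cyclophosphamide and its by-product acrolein are handled by aldehyde dehydrogenases and glutathione. Of 17 genes of oxidant and aldehyde defence 9 rose and 2 fell, with a median of 0.63. Only 1 fell without 1003, without 1005, without 2003 and 2005 or with 2005 alone. Nqo1, a quinone reductase, was 7.13, 6.91 and 6.86 in vehicle and 7.81, 8.13 and 8.43 in treated rats (adjusted p = 3.02e-04), with 2005 the highest. Gsr, which regenerates glutathione, rose from 7.94, 7.98 and 8.19 to 9.30, 9.39 and 9.30 (adjusted p = 1.49e-05), Mgst1 by 1.55 ± 0.13 and Gstm2 by 1.11 ± 0.16, both glutathione transferases. Gclm, the modifier subunit of glutathione synthesis, fell from 10.28, 10.03 and 9.75 to 8.88, 8.80 and 9.10 (adjusted p = 0.00117). In rats with wood Gclm was not called (-0.30 ± 0.19, adjusted p = 0.238), while Nqo1, Gsr, Mgst1 and Gstm2 were called higher. Outside the lists, Akr1b8, an aldo-keto reductase, rose from 6.48, 6.84 and 5.77 to 9.50, 10.30 and 9.98, a change of 3.56 ± 0.32 (adjusted p = 2.95e-05).

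Markers of cells from outside the spleen were counted in the same way. Of 14 exocrine pancreas genes 1 was called, but their median change was 1.60, because 2003 stood at a mean of 9.80 against 5.42 to 6.59 on the other 5 arrays. Prss1, trypsinogen, showed it with 4.56, 7.46 and 5.08 in vehicle rats and 5.20, 11.61 and 8.22 in treated rats (adjusted p = 0.129). Without 2001, 6 pancreas genes were called higher, and without 2003 none was. In turn, 1 was called lower without 2003, without 2005, without both or with 2005 alone. Of 7 adipocyte genes 3 rose and 0 fell. Fabp4, which sinus endothelium and macrophages express as well as fat, rose from 11.22, 11.23 and 11.02 to 12.24, 12.17 and 12.40 (adjusted p = 7.30e-05), while Adipoq, which is particular to fat, did not pass (-0.80 ± 0.40, adjusted p = 0.127). Of 10 hepatocyte genes 2 rose and 0 fell, and 1 rose without 1001, 2001 or 2005, or without 2003 and 2005. With 2005 alone 1 rose and 1 fell. Of 9 genes of mesothelium and epithelium 3 rose and 2 fell, and 1 fell without 2003 and 2005 or with 2005 alone. Wt1, which splenic stroma and mesothelium express, rose by 0.96 ± 0.16 (adjusted p = 0.00102).

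**Figure D3:**
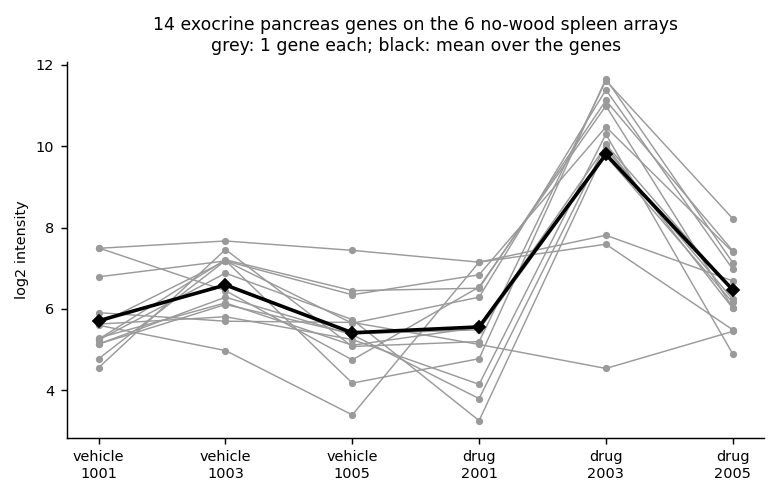
Log2 intensity of the 14 tested exocrine pancreas genes on the 6 no-wood spleen arrays, each grey line a gene and the black line their mean. The mean is 9.80 on the array of 2003 and 5.42 to 6.59 on the other arrays.

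Of the 10 largest falls outside the lists, several belong to known blood cell types. Tspan33, a tetraspanin of activated B cells and erythroblasts, fell from 9.75, 9.75 and 9.75 to 4.36, 4.25 and 5.73 (adjusted p = 1.44e-05). Cd52, a surface glycoprotein of lymphocytes and other leukocytes, went from 9.59, 9.15 and 8.68 to 4.09, 3.93 and 3.98 (35.3-fold, adjusted p = 9.26e-07). Bst1, an ectoenzyme of myeloid and stromal cells, fell from 9.64, 9.86 and 9.53 to 6.68, 6.24 and 1.99 (adjusted p = 0.00297), with 2005 over 4 log2 below the other treated rats. Alox15, a lipoxygenase of eosinophils and macrophages, fell by 4.14 ± 0.29. Cdc25b, a phosphatase of mitotic entry, fell 19-fold, and Tent5c, a polymerase of poly(A) tails in plasma cells and erythroblasts, 17.7-fold. Ypel4 fell by 4.55 ± 0.43, B3gnt5, a glycosyltransferase, by 4.48 ± 0.29, and Chst1, a sulphotransferase, from 9.95, 9.71 and 9.82 to 2.20, 3.85 and 5.70 (adjusted p = 0.00726, and 0.148 in 2005 alone). The remaining member is Defa5, given above.

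The largest rises outside the lists had a different character. Pdgfc, a growth factor of the platelet-derived family, went from 3.41, 3.73 and 4.23 to 8.72, 8.44 and 7.99 (adjusted p = 2.60e-06), and its vehicle levels in rats with wood were 6.66, 6.97 and 6.62. Mrgprf, a receptor of smooth muscle, was 1.26, 1.06 and 3.88 in vehicle and 7.32, 7.30 and 5.24 in treated rats (adjusted p = 8.23e-04), against 7.25, 7.55 and 7.71 in vehicle rats with wood. Adamts15, a matrix protease, rose from 5.84, 3.85 and 3.03 to 7.60, 8.12 and 6.83 (adjusted p = 0.00142), and Tmem130 by 3.74 ± 0.53. In each of these 4 genes every vehicle rat without wood lay below every vehicle rat with wood, as in 2474 of all 13064 genes tested. The 4 were picked as large rises without wood, which favours low controls there. Akr1b8 lacked this separation of the controls: vehicle rats with wood had 6.05, 5.55 and 6.45.

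In 54 of the 83 genes called at least 4-fold higher, all 3 vehicle rats without wood lay below all 3 with wood. The 83 genes called at least 4-fold higher had a median level of 4.64 in vehicle rats without wood, 6.41 in vehicle rats with wood, and 7.09 and 7.19 in treated rats without and with wood. In 55 of the 83 the vehicle mean with wood was over 1 log2 above the vehicle mean without wood, against 514 of all 13064 genes tested. With wood the same 83 genes had a median drug change of 0.78 against 2.41 without, and 31 were called in the same direction. The 184 genes called at least 4-fold lower had a median of 8.89 in vehicle rats without wood and 8.47 with wood. In 0 of them was the vehicle mean with wood over 1 log2 above, but choosing genes with high controls nearly fixes this. Vehicle means with wood over 1 log2 below were not counted. The median drug change of the 184 was -2.36 with wood against -2.78 without, and 157 of the 177 that could be tested with wood were called lower. The genes were chosen by their values without wood, so those values are a description. The 3 vehicle rats without wood are also the arrays with 1778 to 1920 blank cells, and housing and blank class cannot be told apart in them.

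**Figure D4:**
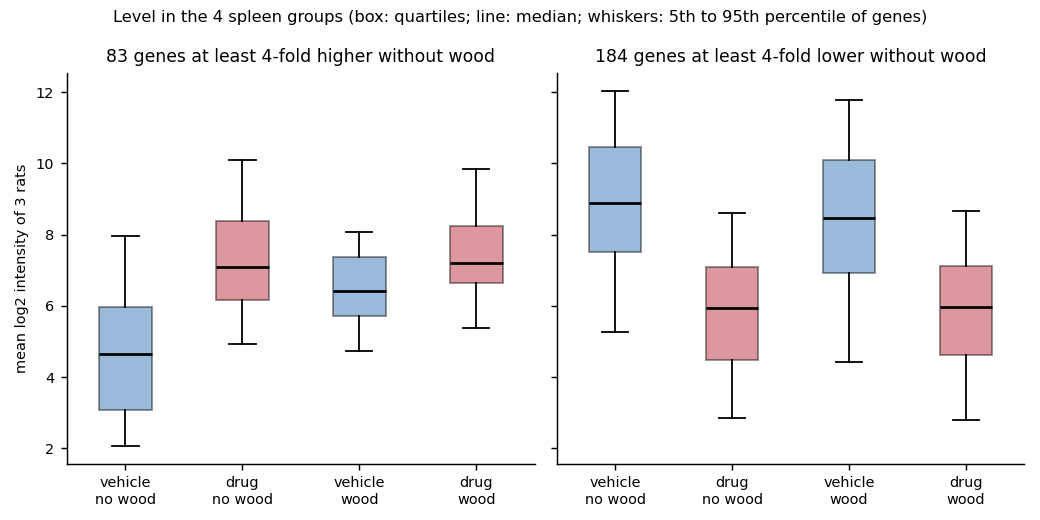
Mean log2 intensity per gene in the 4 spleen groups (3 rats each, over the arrays with a value) for the 83 genes called at least 4-fold higher and the 184 called at least 4-fold lower without wood; boxes are quartiles, lines medians and whiskers the 5th to 95th percentile of genes. On the left the vehicle group without wood lies lowest with a median of 4.64 and the vehicle group with wood at 6.41, while on the right both vehicle groups are high, at 8.89 and 8.47.

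Blank cells were uneven between the groups too. Among genes that could not be tested, 56 had a value in all 3 treated rats and in no vehicle rat. The brightest was Gcgr, the glucagon receptor, with 8.86, 9.82 and 8.76 in the treated rats. Of the 56, 51 had values in all 3 vehicle rats with wood and 53 in all 3 treated rats with wood. In the other direction 9 genes had a value in all 3 vehicle rats and in no treated rat, led by Epb42. Of the 9, 3 had values in all 3 vehicle rats with wood and 0 in all 3 treated rats with wood. In 5 of the 9 all 3 treated rats with wood were blank.

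The rats with wood give a repeat of the comparison in other animals, with controls of their own. All spleen groups share 1 estimate of spread per gene, so the calls without and with wood are not independent. Of 5978 genes called without wood that had values on all 12 arrays, 4074 were called in the same direction with wood and 14 in the opposite one, where 5285 of 12889 genes (41.0%) were called in all. Median changes with wood were -3.52 for globin and red cell genes (-4.58 without), -1.22 for mitosis (-1.70) and 0.81 for macrophages (1.04), all nearer 0 with wood. They were -3.51 for the B cell receptor and surface (-3.15 without) and 1.24 for collagen and matrix (1.05). Also nearer 0 with wood were neutrophil granule genes at -1.57 against -2.52 and cytotoxic and natural killer genes at -0.15 against -0.49. So were mature neutrophil receptors at 0.14 against 0.56 and growth factors at 0.07 against 0.44. These differences between lists were not tested. Alas2 fell there from 11.85, 11.81 and 12.36 to 6.50, 5.71 and 5.42, a log2 change of -6.13. The difference of the drug effect between housings was tested for every gene, and 11 of 12889 (0.0853%) passed, with 1588 at an unadjusted p under 0.05. No member of the 37 lists was among the 11. The count ran from 0 without 1003 to 764 without 2005.

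**Figure D5:**
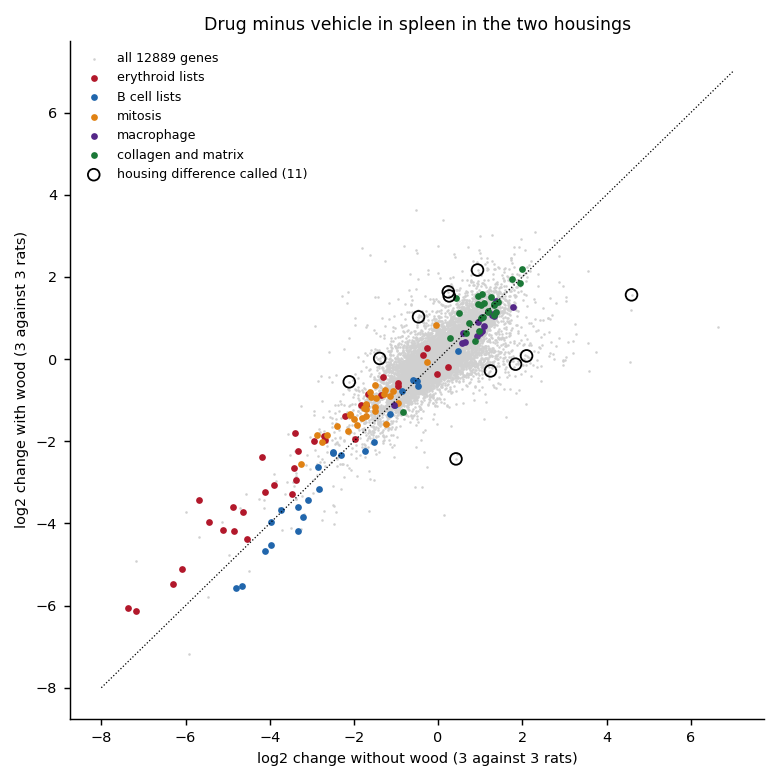
Log2 change with cyclophosphamide without wood (x axis) and with wood (y axis) for 12889 genes, each axis 3 against 3 rats with separate controls; coloured points are members of 5 sets of lists, open circles the 11 genes whose drug effect differed between housings, and the dotted line marks equal change. Most erythroid and B cell genes lie at the lower left in both housings and most matrix and macrophage genes at the upper right.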

How the data were processed

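RNA of whole spleens was hybridised to Affymetrix rat expression arrays, 1 array per rat. The deposited table holds processed intensities on a log scale, read here as log10, with some cells blank. Not given in the sources used here are the summarising of probe sets, the background correction and the scaling between arrays. The base is not stated either, and log10 was inferred because the 1st to 99th percentile of the values then spans 2143-fold, against 10.1-fold if they were log2. The deposited log10 values were multiplied by log2(10), and blanks were left missing.

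Probe sets were named from the platform annotation: of 30980, 20792 name 1 gene, 436 several and 9752 none. Per gene, the probe set with values on all 6 arrays and the highest mean was kept. limma 3.58.1 (R 4.3.3) fitted 4 group means to the 12 spleen arrays, so all spleen groups share 1 estimate of spread. Adjusted p-values are Benjamini-Hochberg values over all genes tested. The number of arrays, 3 per group, limits the precision, and read depth does not apply. On simulated data for 13064 genes, limma found 68 of 100 genes changed by 1 log2 and 93 of 100 changed by 2 log2, with 14 false calls. For the difference of the drug effect between housings it found 49 of 99 and 85 of 99, with 7 false calls. The simulation changed far fewer genes than were called here and held no shift by blank class, so its rates need not hold for these data.

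Alternatives covered scaling, filters, probe sets, the samples fitted, the variance model, array weights, offsets of 16 and 64, the size of change, blank class and each rat left out. Having every gene with blanks at 0, and leaving out 2003 and 2005 together, were added after the data were seen. The members and the gene lists were chosen with earlier results of these data known. Named genes were the key genes of each list, up to 4 called members per direction with the largest change, the 10 largest rises and falls outside the lists, the 8 brightest genes blank in 1 group, and up to 5 genes per direction whose drug effect differed by housing; the text gives most of these. Liver arrays were not used in the comparison.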

Additional observations from a re-analysis of the deposited data

Results flagged for a closer look

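The drug effect differed between housings in 11 genes, and the 10 named here were picked by p, 5 in each direction. Values below are the log2 drug effect with wood minus that without wood, with limma's adjusted p. All 10 lost the call without 1003, with adjusted p of 0.0682 to 0.0816, and all 10 kept it without 2005. Without 1005, and likewise without 2001, 9 of the 10 lost it, all but Pdgfc. Without 2003 5 lost it, and without 1001 3. In all 5 genes whose effect was lower with wood, every control without wood lay below every control with wood. Over all genes tested this held in 2474 of 13064. The vehicle levels enter the difference by which the 10 were picked, so the choice favours such a separation. Pdgfc differed by -3.03 (adjusted p = 0.0136), with vehicle levels of 3.41, 3.73 and 4.23 without wood and 6.66, 6.97 and 6.62 with wood. Stac2 differed by -1.96, Plcd3 by -2.02 and Wdr54 by -1.53 (adjusted p = 0.0414, 0.0414 and 0.0454). In Plcd3 vehicle levels were 5.41, 4.64 and 4.69 without wood and 7.20, 7.28 and 7.33 with wood. Mab21l1 differed by -2.85 (adjusted p = 0.0136), with vehicle levels of 3.71, 2.89 and 3.16 without wood and 5.45, 5.28 and 5.39 with wood. Its treated levels were 3.84, 3.30 and 3.89 without wood and 2.96, 3.14 and 2.72 with wood.

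Where the effect was higher with wood, the genes were Spry2, an inhibitor of receptor tyrosine kinase signalling, with 1.49 (adjusted p = 0.0136), and Ppp1r14c, an inhibitor of protein phosphatase 1, with 1.56 (0.0338). Smo, the Hedgehog signal transducer, differed by 1.40 (0.0338), which fell to 0.11 with the mean of its probe sets. Col6a6, a chain of collagen VI, differed by 1.23 and Cbx7, a Polycomb protein, by 1.27 (both 0.0414). In all 5 every control without wood lay above every control with wood, which the choice of these genes favours too. The share of all genes with this order was not counted. In Spry2 the vehicle rats had 7.84, 7.77 and 7.70 without wood and 6.52, 6.41 and 6.61 with wood, and the treated rats had 7.29, 7.17 and 7.46 without wood and 7.76, 7.43 and 7.44 with wood. The vehicle arrays of the 2 housings differ in blank class too, and these cannot be told apart.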

How the results depend on the processing

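The 2926 genes higher and 3069 lower changed by over 1.5 times in these settings. With 2005 as the only treated rat, and equally with blank class as a batch term, 1813 were higher and 1817 lower. Among genes at or above the median level 2016 were lower, and at 1.5-fold or more 1798 were lower; both settings leave fewer genes to call. Leaving out 1 rat at a time gave 2388 to 3250 higher and 2442 to 3618 lower, the lowest without 2003 and the highest without 2005. The 11 genes whose drug effect differed by housing became 4 with quantile normalisation, 385 with array weights, 22 and 27 with offsets of 16 and 64, 58 with blank class as a batch term, 69 with every gene and blanks at 0, and 301 without 2003 and 2005. Leaving out 1 rat gave 0 to 764. The cause was not tested. For 172 named genes, 3256 of 3372 values kept their direction and side of the threshold, 82 lost the call, 19 gained it and 15 reversed, all in genes not called: Cd8a was -0.09 with the mean of its probe sets, and Prss1 -0.50 without 2003 and 2005. Bcl6, Xbp1 and Prdm1 lie near 0. Bcl6 was 0.05 with median centring, 0.02 with array weights and -0.19 to 0.12 with 1 rat left out. Xbp1 was -0.00 with quantile normalisation, -0.22 with 2005 alone or the batch term and -0.09 to 0.13 with 1 rat left out, and Prdm1 was -0.00 to 0.22 with 1 rat left out. No paired analysis was possible because the spleen groups share no animal number. Values near the blank level are the least certain, and no low value sets a floor for a fold.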
